A study of Mus musculus with 66 samples.

Results

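The 10 genes described here, Ccnd1, Ccnd2, Ccnd3, Ccne1, Ccne2, Cdk2, Cdk4, Cdk6, Rb1 and Cdkn1b, are the G1 cyclins, their cyclin-dependent kinases (CDKs), the retinoblastoma gene and the CDK inhibitor p27. They were taken by gene symbol, and the rule itself uses no threshold on a measured value. In 3'READS, which sequences the 3' ends of polyadenylated RNA and counts reads that carry part of the poly(A) tail (PASS reads) at each polyadenylation (pA) site, all 10 were found among 15856 genes, with 40 of 59578 sites. In RNA-seq of rRNA-depleted RNA, 8 of them were found among 9999 genes, and Ccnd1 and Cdkn1b were not analysed here in that assay. All libraries came from C2C12 cells, an established mouse line of muscle precursor cells, in the myoblast state, and each culture received 50 nM siRNA for 48 h. The siRNAs were a non-specific control (siCtrl) or targeted Paf1, Cdc73 or Wdr61 (the gene of Ski8), which encode subunits of Paf1C, a complex that travels with RNA polymerase II. In each of the 2 assays, siCtrl, siPaf1 and siCdc73 had a library in batch 1 and a library in batch 2, and siSki8 had a batch 2 library alone, so that 14 of the 66 samples of the series were used. The labels do not say whether the libraries came from separate cultures, and p-values measure only the spread between these libraries. A transient knockdown leaves part of the target, the cultures are mixtures of cells in all phases, and fewer cells in a phase and less RNA per cell cannot be told apart.

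Cells pass from G1 into S phase when D-type cyclins, made in response to growth factors, bind Cdk4 or Cdk6 and phosphorylate the pocket protein Rb. Phosphorylated Rb releases E2F transcription factors, which drive the genes of DNA replication together with the E-type cyclins, and cyclin E with Cdk2 carries Rb phosphorylation further. The inhibitor p27, the product of Cdkn1b, binds cyclin-CDK complexes and holds cells in G1. In muscle the same machinery sets whether a myoblast divides or leaves the cycle to differentiate, a step for which Rb is needed.

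The siRNA targets were checked first. Paf1 was lowest in the siPaf1 libraries, with 20.3 and 31.1 CPM (counts scaled to library size after TMM normalisation) in batches 1 and 2 of RNA-seq against 106.8 and 159.8 in siCtrl. In the siCdc73 libraries Paf1 was above siCtrl, at 263.9 and 418.4 CPM. The same held in 3'READS, with 41.04 and 35.85 CPM in siCdc73 against 19.5 and 16.83 in siCtrl. Cdc73 stood at 14.2 and 22.02 in siCdc73 against 109.3 and 98.4 in siCtrl, and Wdr61 at 5.97 in siSki8 against 49.8 and 129.2. Each target was also lowest in its own knockdown in 3'READS. Total counts ran from 2796693 to 8160386 in RNA-seq, where siPaf1 batch 2 was the shallowest, and from 5302728 to 14340927 in 3'READS, where siCdc73 batch 1 was. The summed CPM of the myoblast markers listed ran from 1030 to 3224 in RNA-seq and from 809 to 1952 in 3'READS, although Myod1 reached at most 0.529 CPM in 3'READS. With siCdc73 the sum was below siCtrl of the same batch, at 1030 and 1614 CPM against 1540 and 2507 in RNA-seq. In 3'READS it was 1305 and 809 against 1835 and 1554. Des and Cdh15, which make up most of the sum, were lower with siCdc73 in both assays and batches. Myf5 went the other way, at 78.3 and 108.8 CPM against 53.8 and 63.4 in RNA-seq. Its 3'READS values were 11.9 and 36.8 against 7.95 and 27.8. Itga7, listed in 3'READS alone, lay on either side of siCtrl (80.1 and 116 against 61.5 and 119.2). With siPaf1 the myoblast sum was above siCtrl, at 1743 and 2651 CPM and, in 3'READS, 1952 and 1764. In RNA-seq Cdh15 was lower with siPaf1 (351.5 and 626 CPM against 789.9 and 1015) and Des higher (1338 and 1978 against 696.6 and 1428). The part of these markers in the results was not tested. The markers of differentiated myotubes summed to between 26.0 and 251 CPM in RNA-seq and between 51.5 and 323 in 3'READS, and siPaf1 batch 2 was the highest in both assays. Tmem8c was nevertheless lower in siPaf1 batch 2 than in siCtrl batch 2 in RNA-seq (4.885 against 10.26 CPM) and in 3'READS (12.44 against 16.07). Myog was also lower there in 3'READS (8.334 against 13.14), while the other listed myotube markers were higher. In RNA-seq the endothelial, blood, epithelial and osteoblast markers summed to at most 1.18 CPM for any list. In 3'READS the endothelial list summed to 23.4 and 28.5 CPM in siCtrl, nearly all of it from Kdr, and to between 3.49 and 15.9 in the knockdowns, and its part in the results was not tested.

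The pA sites differed in number between the members. Ccnd3, Ccne1, Cdk4, Rb1 and Cdkn1b each had 1 listed site in the 3'-most exon or just past its annotated end, whereas Cdk2 had 2, Cdk6 had 4, Ccnd2 and Ccne2 had 8 each and Ccnd1 had 13. Of the 40 sites, 36 belonged to 3'-most exons, 2 to introns and 2 to internal exons. The hexamer AATAAA or ATTAAA, the signal read by the cleavage machinery, stood within 40 bases upstream of 15 of the 40 sites. Of all sites, 58.6% of 38550 in 3'-most exons, 60.8% of 16766 in introns and 32.4% of 967 in internal exons had it. Ccnd1 alone held 13 of the 40 sites and 1 of the 15 with a hexamer, so the pooled count leans on that gene. The 30 bases that end at the cleavage site are given below for Ccnd1, Ccnd2 and Cdk2, the genes with an isoform call or an intronic site, 5' to 3' on the gene's strand in build mm9, because they show which of the competing sites carry a hexamer (capitals).
Ccnd1 proximal 3'UTR site, exon 5 of 5, chr7:152116611-152116640 (-): tttaatttcctcatagagtgtatttacaga
Ccnd1 distal 3'UTR site, exon 5 of 5, chr7:152115836-152115865 (-): aatctagaaAATAAAattggtaaaatctca
Ccnd2 intronic site, intron 2 of 4, chr6:127098313-127098342 (-): cttaaagaccAATAAAgtctcatggacaaa
Ccnd2 proximal 3'UTR site, exon 5 of 5, chr6:127078889-127078918 (-): gacagtcagtaaacagaagtgggagccaca
Ccnd2 main 3' site, past the annotated end, chr6:127075180-127075209 (-): tttggacAATAAActcaccttgacctacaa
Cdk2 intronic site, intron 5 of 7, chr10:128138191-128138220 (-): aagttatctaatatatatatatatatctta
Cdk2 3'UTR site, exon 8 of 8, chr10:128135000-128135029 (-): ttgtaaattcATTAAAagaaaatattctca
The proximal 3'UTR sites of Ccnd1 and Ccnd2 and the intronic Cdk2 site hold neither hexamer in this window, while their distal partners do. The intronic Ccnd2 site holds the same AATAAA as the main 3' site of the gene. Over the 20 bases after the site, 3'-most exon sites held a median of 4 A's, and the sites printed above held between 0 and 7. Among the sites not printed, Ccnd1 at 152118123 and 152115873 and Ccnd2 at 127075312 held 13 A's each. At least 12 were held by 0.672% of the 38550 sites in 3'-most exons. These Ccnd1 sites had 36 and 11 reads over all libraries and the Ccnd2 site had 14, and these reads are part of the gene totals.

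Levels between genes were compared per length, from the RPKM values in the authors' RNA-seq table (reads scaled by coding length and library size). Cdk4, the kinase partner of the D cyclins, was the most abundant member in siCtrl, with 388 and 614 RPKM in batches 1 and 2. Ccnd3 followed with 139.97 and 106.9 RPKM, and the siCtrl values of each of these genes did not overlap with those of any other member. Ccne1 had 36.6 and 57.0, Ccne2 37.2 and 28.8, Cdk2 26.9 and 26.4, and Cdk6 29.2 and 17.2 RPKM. Within this middle group the ranges of Ccne1 and Ccne2, of Ccne2 and Cdk6, and of Cdk6 and Cdk2 overlapped. The order within these pairs was therefore not set beyond the spread. Ccne1 was above Cdk6 and Cdk2 without overlap, and Ccne2 above Cdk2. Rb1 had 11.4 and 10.1 RPKM, and Ccnd2, at 6.53 and 5.23 RPKM, was the lowest.

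Every knockdown was set against siCtrl in a quasi-likelihood test (edgeR), which asks whether losing a Paf1C subunit changed the RNA of these genes. Without a term for the batch, the test called none of the members at an adjusted p under 0.05 in RNA-seq (0 of 8, and 0% of the 6521 genes tested, for siPaf1, siCdc73 and siSki8) or in 3'READS (0 of 10, and 0% of 12579 genes). At an unadjusted p under 0.05 this fit held 4 of 8 members for siPaf1 and 4 for siCdc73 in RNA-seq, where 17.7% and 21.1% of all genes reached it, and 3 and 5 of 10 in 3'READS, where 13.5% and 15.3% did. DESeq2 called 3 and 1 members in RNA-seq (5.98% and 8.43% of all genes) and 3 and 2 in 3'READS (3.94% and 5.65%). Libraries of the same batch moved together across genes, and all further calls come from the same test with the batch as a block. A gene is said to rise or fall only where it passed that blocked test, and for the members the adjusted p without the block is printed beside it. With the block, siPaf1 lowered 5 of 8 members in RNA-seq and raised 1, where 16.2% of all genes tested fell and 16.3% rose. In 3'READS siPaf1 lowered 4 of 10 and raised none (0), where 9.08% of genes fell and 9.74% rose. For siCdc73, 3 of 8 fell and 1 rose in RNA-seq (20.5% and 19.4% of genes), and 5 of 10 fell and 1 rose in 3'READS (11.8% and 10.8%). The median log2 fold change of the members with the block was -1.03 for siPaf1 and -0.56 for siCdc73 in RNA-seq, against 0.02 and -0.02 over all genes tested, and -0.43 and -0.58 in 3'READS, against 0.08 and -0.02. Scaling by library size alone moved the median of all genes in RNA-seq to -0.19 for siCdc73 and -0.23 for siSki8 with the block, and in 3'READS to 0.17 for siPaf1 and -0.11 for siCdc73.

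**Figure D1:**
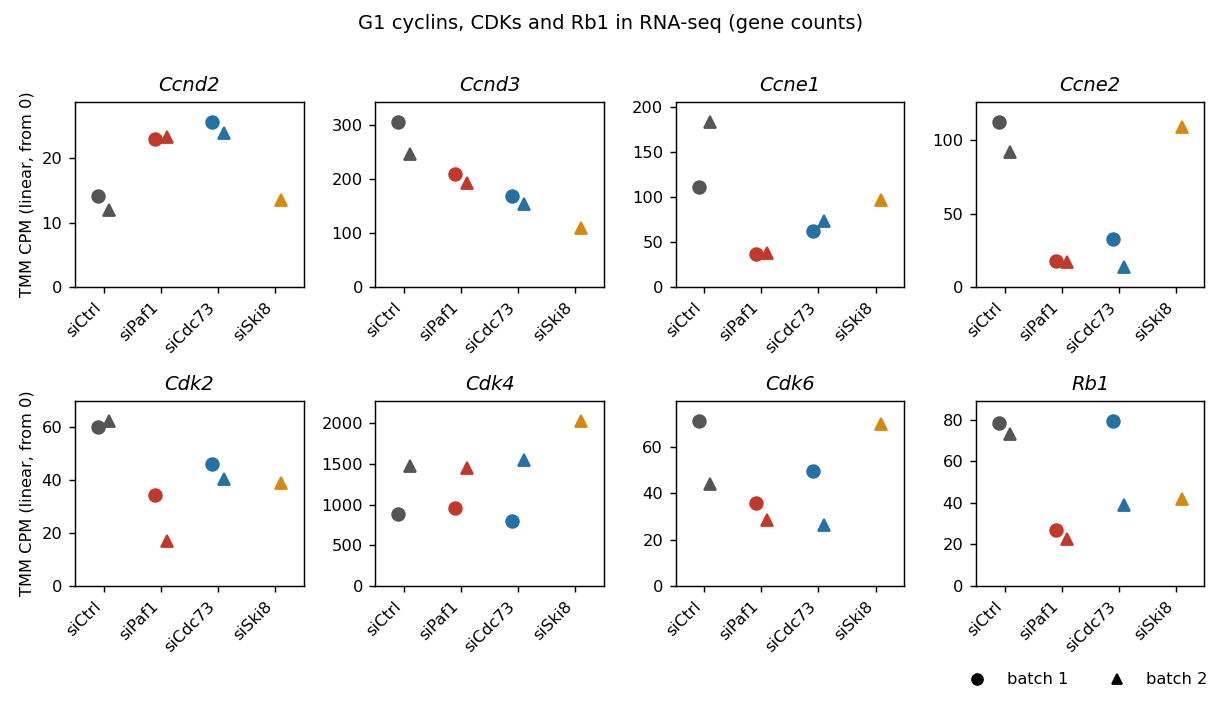
RNA-seq level of the 8 listed members (y axis, TMM CPM, linear from 0) in each library, by knockdown (x axis), with circles for batch 1 and triangles for batch 2. Ccnd3, Ccne1, Ccne2, Cdk2, Cdk6 and Rb1 are lower in both siPaf1 libraries (Rb1 27.2 and 22.7 CPM) than in any siCtrl library. Cdk4 differs more between the batches of siCtrl (879 and 1470 CPM) than between siCtrl and siPaf1.

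**Figure D2:**
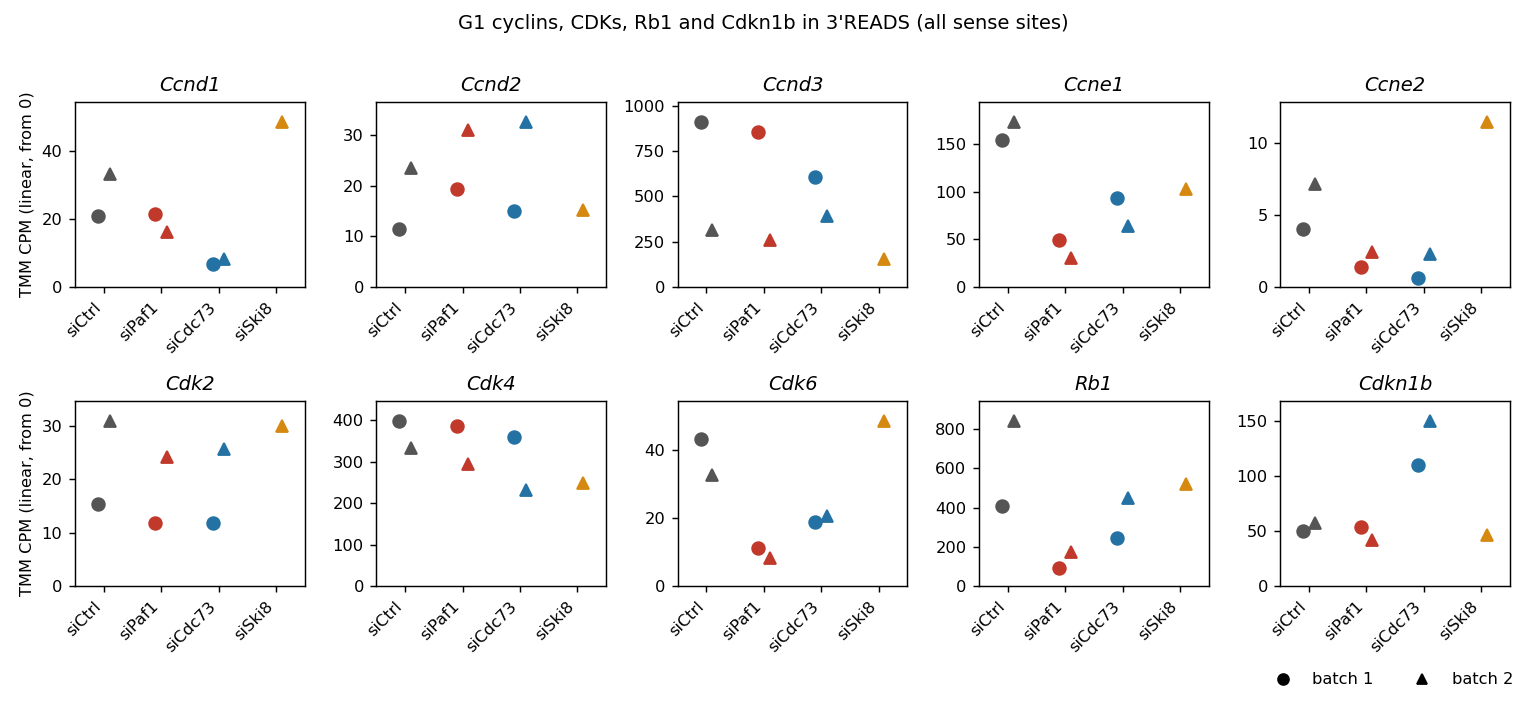
3'READS level of all 10 members (y axis, TMM CPM summed over the sense sites of a gene, linear from 0) in each library, drawn as in the RNA-seq plot. Cdkn1b is high in both siCdc73 libraries (109.7 and 150.1 CPM) and Ccnd1 is low in both (6.73 and 8.09 CPM).

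Among the D-type cyclins, the growth factor-driven partners of Cdk4 and Cdk6, the 3 genes moved in different directions. Ccnd1 had 20.9 and 33.4 CPM in 3'READS in siCtrl (batch 1 and batch 2, the order used throughout), 21.6 and 16.2 in siPaf1, 6.73 and 8.09 in siCdc73 and 48.7 in siSki8. The siCdc73 libraries were thus below all others, the siPaf1 libraries lay on either side of the lower siCtrl value, and the siSki8 library was the highest. With siCdc73, Ccnd1 fell by 1.83 on the log2 scale (SE 0.34, edgeR adjusted p = 0.00142 with the block and 0.158 without), and the call was kept whichever library was left out. With siPaf1 it did not pass (edgeR adjusted p = 0.289 with the block and 0.624 without), since its difference from siCtrl was 0.05 in batch 1 and -1.03 in batch 2. Ccnd2, the least abundant D cyclin in RNA-seq, had 14.1 and 11.9 CPM there in siCtrl, 23.0 and 23.4 in siPaf1, 25.7 and 23.9 in siCdc73 and 13.5 in siSki8. All siPaf1 and siCdc73 libraries were above both siCtrl libraries and the siSki8 library lay between the siCtrl values. Ccnd2 rose by a log2 fold change of 0.81 with siPaf1 (SE 0.31, edgeR adjusted p = 0.0374 with the block and 0.323 without) and of 0.91 with siCdc73 (SE 0.31, adjusted p = 0.0155 and 0.227). Both Ccnd2 calls rest on few libraries. The siPaf1 call was lost without either siCtrl, either siCdc73 or the batch 2 siPaf1 library (adjusted p up to 0.291), and the siCdc73 call without either siCtrl or either siCdc73 library (up to 0.168). In 3'READS, Ccnd2 had 11.6 and 23.5 CPM in siCtrl, 19.4 and 31.0 in siPaf1, 15.0 and 32.7 in siCdc73 and 15.2 in siSki8. Batch 2 was above batch 1 in each group there, the log2 differences within batches 1 and 2 were 0.74 and 0.39 (siPaf1) and 0.37 and 0.47 (siCdc73), and neither passed (edgeR adjusted p = 0.198 and 0.33 with the block).

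Ccnd3, the D cyclin known to be kept in differentiating muscle, was the most abundant cyclin by RPKM in RNA-seq, where Ccnd1 was not analysed. Its RNA-seq levels were 306 and 247 CPM in siCtrl, 209 and 193 in siPaf1, 169 and 153 in siCdc73 and 109.7 in siSki8. Every knockdown library was therefore below both siCtrl libraries, and siSki8 was the lowest. Ccnd3 fell by 0.77 with siCdc73 on the log2 scale (SE 0.23, edgeR adjusted p = 0.0076 with the block and 0.23 without), a call lost without either siCtrl or either siCdc73 library (up to 0.159), and did not pass with siPaf1 (adjusted p = 0.128 with the block). In 3'READS the levels were 912 and 314 CPM in siCtrl, 858 and 257 in siPaf1, 605 and 391 in siCdc73 and 154.6 in siSki8. Here the batches differed by more than the knockdowns, the siCdc73 difference was -0.59 in batch 1 and 0.32 in batch 2, and no comparison with siCtrl passed (edgeR adjusted p = 0.721 for siPaf1 and 0.857 for siCdc73 with the block).

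The kinases of the D cyclins divided, with Cdk6 lower and Cdk4 not called in any comparison with siCtrl. Cdk6 had 71.3 and 44.2 CPM in RNA-seq in siCtrl, 35.95 and 28.6 in siPaf1, 49.5 and 26.5 in siCdc73 and 70 in siSki8. Both siPaf1 values were below both siCtrl values, and the batch 1 siCdc73 value lay between them. Cdk6 fell by 0.81 with siPaf1 (log2, SE 0.27, edgeR adjusted p = 0.018 with the block and 0.392 without), a call lost without either siCtrl library or without the batch 1 siPaf1 library (up to 0.159). The siCdc73 comparison did not pass in RNA-seq (edgeR adjusted p = 0.0609 with the block). In 3'READS the siPaf1 difference was larger and steadier. For siCdc73 the log2 differences in batches 1 and 2 were -1.20 and -0.65 there, and -0.52 and -0.73 in RNA-seq. The 3'READS levels were 43.1 and 32.5 CPM in siCtrl, 11.1 and 8.27 in siPaf1, 18.7 and 20.7 in siCdc73 and 48.5 in siSki8. The siPaf1 libraries were the lowest, the siCdc73 libraries came next and the siSki8 library was the highest. Cdk6 fell by 1.95 with siPaf1 (SE 0.30, edgeR adjusted p = 0.000423 with the block and 0.194 without), also whichever library was left out, with the same difference from siCtrl in both batches (-1.94 and -1.95). With siCdc73 it fell by 0.90 (SE 0.29, edgeR adjusted p = 0.0362 with the block and 0.318 without), which was lost without either siCtrl or the batch 1 siCdc73 library (up to 0.333). Cdk4 had 879 and 1470 CPM in RNA-seq in siCtrl, 952 and 1448 in siPaf1, 803 and 1545 in siCdc73 and 2025 in siSki8, so that batch 2 was above batch 1 in each group. Within batches, its log2 difference in RNA-seq was 0.12 and -0.02 (siPaf1) or -0.13 and 0.07 (siCdc73) (edgeR adjusted p = 0.883 and 0.931 with the block). In 3'READS, Cdk4 ran from 230.6 CPM in siCdc73 batch 2 to 398 in siCtrl batch 1 (adjusted p = 0.798 for siPaf1 and 0.399 for siCdc73 with the block).

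The E-type cyclins, which are E2F targets and partner Cdk2, were the members that fell in both assays with both knockdowns. Ccne1 had 111.5 and 183.5 CPM in RNA-seq in siCtrl, 36.8 and 37.7 in siPaf1, 62.5 and 73.4 in siCdc73 and 97.1 in siSki8. The siPaf1, siCdc73, siSki8 and siCtrl libraries thus followed each other upwards without overlap. Ccne1 fell by 1.93 with siPaf1 (log2, SE 0.26, edgeR adjusted p = 9.08e-07 with the block and 0.0835 without), kept whichever library was left out. With siCdc73 it fell by 1.08 (SE 0.25, edgeR adjusted p = 0.000826 with the block and 0.162 without), lost without the batch 2 siCtrl or siCdc73 library (up to 0.0974). 3'READS gave 154.5 and 173 CPM in siCtrl, 49.4 and 30.2 in siPaf1, 93.2 and 63.7 in siCdc73 and 103.1 in siSki8, which is the same order. There Ccne1 fell by 2.09 with siPaf1 (SE 0.30, edgeR adjusted p = 0.000231 with the block and 0.196 without), kept in each fit with a library left out, and by 1.11 with siCdc73 (SE 0.29, adjusted p = 0.0125 and 0.314), lost without the batch 2 siCtrl or siCdc73 library (up to 0.322).

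Ccne2 showed the largest fall of the members in RNA-seq. Its levels were 112.4 and 92.0 CPM in siCtrl, 18.0 and 17.1 in siPaf1, 32.7 and 13.4 in siCdc73 and 109 in siSki8. The siPaf1 and siCdc73 libraries were far below the others and the siSki8 library lay between the siCtrl values. Ccne2 fell by 2.54 with siPaf1 (log2, SE 0.29, edgeR adjusted p = 9.94e-08 with the block and 0.0835 without) and by 2.17 with siCdc73 (SE 0.29, adjusted p = 5.63e-07 and 0.0798), and both calls were kept whichever library was left out. In 3'READS the gene was counted with few reads, 27 and 76 in siCtrl, 11 and 37 in siPaf1, 3 and 32 in siCdc73 and 101 in siSki8, or 4.05 and 7.19, 1.42 and 2.45, 0.651 and 2.27, and 11.5 CPM. The siPaf1 and siCdc73 values were again below both siCtrl values, while the siSki8 value was above them. Ccne2 fell there by 1.45 with siPaf1 (SE 0.50, edgeR adjusted p = 0.0432 with the block and 0.402 without) and by 1.80 with siCdc73 (SE 0.53, adjusted p = 0.0158 and 0.295). The siPaf1 call was lost without either siCtrl, the batch 2 siPaf1 or the siSki8 library (up to 0.247), and the siCdc73 call without either siCtrl or the batch 1 siCdc73 library (up to 0.0969).

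Cdk2, the kinase bound by cyclin E, differed between the assays. RNA-seq gave 60.0 and 62.2 CPM in siCtrl, 34.5 and 17.1 in siPaf1, 46.1 and 40.5 in siCdc73 and 39 in siSki8. All knockdown libraries were below both siCtrl libraries, and the batch 2 siPaf1 library was the lowest. Cdk2 fell by 1.25 with siPaf1 (log2, SE 0.28, edgeR adjusted p = 0.00098 with the block and 0.201 without), lost without the batch 2 siCtrl library (0.0668), and did not pass with siCdc73 (adjusted p = 0.136 with the block). In 3'READS the levels were 15.3 and 30.9 CPM in siCtrl, 11.8 and 24.1 in siPaf1, 11.7 and 25.6 in siCdc73 and 30.03 in siSki8. Within batches the log2 difference was -0.38 and -0.36 (siPaf1) or -0.38 and -0.27 (siCdc73), and neither passed (edgeR adjusted p = 0.404 and 0.476 with the block).

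Rb1, the pocket protein that holds E2F in check, fell with siPaf1 in both assays. Its RNA-seq levels were 78.7 and 73.0 CPM in siCtrl, 27.2 and 22.7 in siPaf1, 79.4 and 38.9 in siCdc73 and 42.1 in siSki8. The siPaf1 libraries were lowest, whereas of the siCdc73 libraries the batch 1 value was at the siCtrl level and the batch 2 value was below it. Rb1 fell by 1.61 with siPaf1 (log2, SE 0.28, edgeR adjusted p = 3.86e-05 with the block and 0.14 without), kept whichever library was left out, and did not pass with siCdc73 (adjusted p = 0.22 with the block). 3'READS gave 407 and 842 CPM in siCtrl, 90.6 and 173 in siPaf1, 246 and 448 in siCdc73 and 523 in siSki8. Batch 2 was above batch 1 in each group, and within each batch the order was siPaf1, siCdc73, siCtrl. Rb1 fell by 2.22 with siPaf1 (SE 0.27, edgeR adjusted p = 8.48e-05 with the block and 0.238 without), kept whichever library was left out, with differences of -2.16 and -2.28 in the batches. With siCdc73 it fell by 0.82 (SE 0.26, edgeR adjusted p = 0.0343 with the block and 0.535 without), lost without either siCtrl or either siCdc73 library (up to 0.285).

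Cdkn1b, which encodes p27, was the member that rose with siCdc73 in 3'READS. It had 50.1 and 57.6 CPM in siCtrl, 53.8 and 41.9 in siPaf1, 109.7 and 150.1 in siCdc73 and 46.9 in siSki8. Only the siCdc73 libraries stood apart, above all others. Cdkn1b rose by a log2 fold change of 1.26 with siCdc73 (SE 0.29, edgeR adjusted p = 0.00544 with the block and 0.219 without), lost without the batch 2 siCdc73 library (0.111), and did not pass with siPaf1 (adjusted p = 0.73 with the block). The summed myotube markers in 3'READS were 51.5 and 115 CPM in the siCdc73 libraries against 106.8 and 132 in siCtrl, and 152.6 and 323 in siPaf1. In RNA-seq they were 58.1 and 251 CPM in siPaf1 against 37.7 and 100.2 in siCtrl, and 26.0 and 119.7 in siCdc73. Their part in the member results was not tested.

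**Figure D3:**
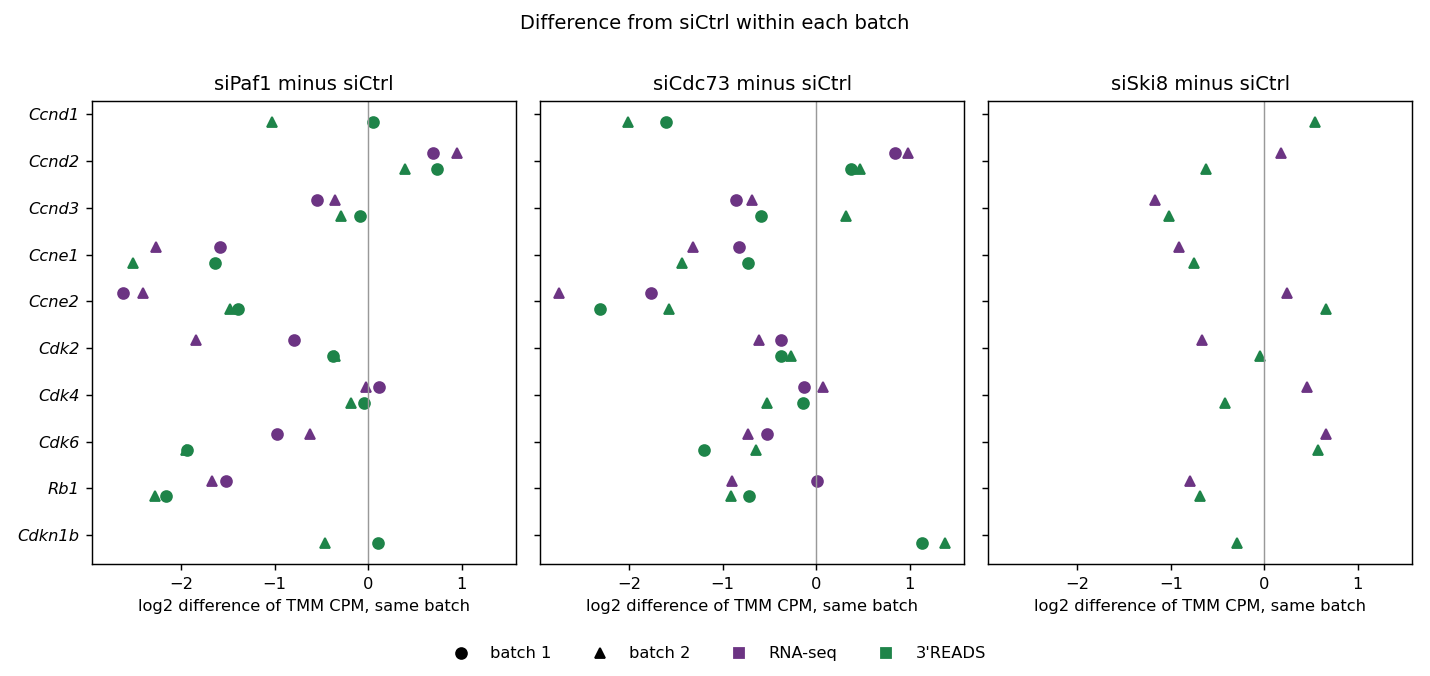
Log2 difference of TMM CPM from the siCtrl library of the same batch (x axis) for each member (y axis), with RNA-seq in purple, 3'READS in green, circles for batch 1 and triangles for batch 2. Ccnd3, Ccne1, Ccne2, Cdk2, Cdk6 and Rb1 lie left of 0 in both assays and batches with siPaf1. In 3'READS Rb1 is at -2.16 and -2.28 and Ccnd3 close to 0 at -0.088 and -0.287. Cdkn1b lies right of 0 with siCdc73 (1.13 and 1.38).

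siPaf1 was also compared with siCdc73, which asks whether the 2 subunits differ in their effect on these genes. In 3'READS this comparison was added after the data were seen. Without the block none of the members passed in RNA-seq (0 of 8, 0% of genes) or in 3'READS (0 of 10, 0% of genes). In RNA-seq 1 member reached an unadjusted p under 0.05 (13.2% of all genes) and 0 were called by DESeq2 (2.5%), and in 3'READS 4 did (10.3%) and 1 was called by DESeq2 (1.73%). With the block 3 of 8 were lower in siPaf1 in RNA-seq, where 13.6% of genes were lower and 14.6% higher. In 3'READS 4 of 10 were lower and 1 was higher, where 6.3% of genes were lower and 8.08% higher. Rb1 was lower in siPaf1 than in siCdc73 in RNA-seq (log2 fold change -1.21, SE 0.28, edgeR adjusted p = 0.00186 with the block and 0.311 without, lost without the batch 1 siCdc73 library, 0.233) and in 3'READS (-1.41, SE 0.27, adjusted p = 0.00297 and 0.481, kept whichever library was left out). Ccne1 was lower in siPaf1 in both assays, with log2 fold changes of -0.84 (SE 0.26, edgeR adjusted p = 0.0137 with the block and 0.385 without) and -0.98 (SE 0.29, adjusted p = 0.0342 and 0.499). Both were lost without either siCdc73 library or without the batch 2 siPaf1 library (up to 0.173 and 0.192), and the second also with library size alone as the scaling (0.0755). Cdk2 in RNA-seq was -0.74 (SE 0.29, edgeR adjusted p = 0.0489 with the block and 0.485 without), lost with library size alone (0.123) and without any of either siCdc73, the batch 2 siPaf1 or the siSki8 library (up to 0.382). Cdk6 in 3'READS was -1.04 (SE 0.30, edgeR adjusted p = 0.0301 with the block and 0.468 without), lost with library size alone (0.0632) and without the batch 2 siCdc73 or siPaf1 library (up to 0.405). The growth-promoting Ccnd1 and the inhibitor Cdkn1b went opposite ways between these knockdowns in 3'READS. Ccnd1 was higher in siPaf1 by 1.33 (SE 0.34, edgeR adjusted p = 0.0171 with the block and 0.433 without, lost without the batch 2 siCdc73 or the batch 1 siPaf1 library, up to 0.0763), and Cdkn1b differed by -1.43 (SE 0.29, adjusted p = 0.00479 and 0.412, lost without the batch 2 siCdc73 library, 0.0734). Ccnd2, Ccnd3, Ccne2 and Cdk4 did not pass between siPaf1 and siCdc73 in either assay, with adjusted p of at least 0.304 with the block.

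For the lone siSki8 library the spread came from the other groups. In RNA-seq 1 of 8 members fell with the block and none (0) rose, where 2.5% of genes fell and 2.93% rose, and in 3'READS 0 of 10 were called, where 0.0715% fell and 0.0795% rose. Without the block 1 of 8 reached an unadjusted p under 0.05 in RNA-seq (5.54% of all genes) and 0 of 10 in 3'READS (3.33%), and DESeq2 called none (0) in either (0.0767% and 0% of genes). The called member was Ccnd3, with a fall of 1.23 on the log2 scale (SE 0.31, edgeR adjusted p = 0.0158 with the block and 0.781 without), lost without either siCtrl or the batch 2 siCdc73 library (up to 0.0954). Against the batch 2 siCtrl library, Ccnd3 differed by -1.17 in RNA-seq and by -1.02 in 3'READS, where it did not pass (edgeR adjusted p = 0.266 with the block). Ccne2, which fell with siPaf1 and siCdc73, was 0.24 and 0.66 above the batch 2 siCtrl library in the 2 assays (edgeR adjusted p = 0.579 and 0.777 with the block). Cdk6 was likewise above it, by 0.66 and 0.57, and Rb1 below it, by -0.79 and -0.69 (edgeR adjusted p of at least 0.262 with the block for these genes).

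The other genes of the pathway were grouped into 4 lists, chosen with earlier results of these data known, so that their counts are a description and not independent evidence of a direction. The siRNA comparisons share the siCtrl libraries. For the list genes named here the adjusted p is that with the block, and without it edgeR gave adjusted p between 0.0712 (Prim1 with siCdc73) and 0.781 (Dbf4 with siSki8). Without the block no gene of any list was called against siCtrl (0 in each list and assay). At an unadjusted p under 0.05 that fit held 18 of 19 tested E2F targets of the G1/S transition for siPaf1 in RNA-seq (17.7% of all genes). For siCdc73 it held 16 of them (21.1% of all genes). With the block, 18 of these 19 fell with siPaf1 and 19 of 19 with siCdc73, where 16.2% and 20.5% of all genes tested fell, with median log2 fold changes of -1.64 and -1.69, against 0.02 and -0.02 over all genes. Mcm2, a subunit of the replicative helicase, had 503 and 492 CPM in siCtrl and 100.8 and 76.8 in siPaf1. Its log2 fold change with siPaf1 was -2.50 (SE 0.24, edgeR adjusted p = 4.65e-09). Tk1, the thymidine kinase of S phase, changed by -2.46 with siPaf1 (SE 0.26, edgeR adjusted p = 1.66e-08), and Rrm2, a subunit of ribonucleotide reductase, by -2.16 (SE 0.26, adjusted p = 1.95e-07). With siCdc73, Prim1, the catalytic primase subunit, changed by -2.18 (SE 0.26, edgeR adjusted p = 9.18e-08), the helicase subunit Mcm6 by -1.96 (SE 0.24, adjusted p = 1.66e-07) and Uhrf1, which guides maintenance DNA methylation, by -2.21 (SE 0.27, adjusted p = 1.38e-07). In 3'READS 23 of 29 E2F targets fell with siPaf1 and none (0) rose, and 21 fell and 1 rose with siCdc73, where 9.08% and 11.8% of all genes fell and 9.74% and 10.8% rose, with medians of -1.62 and -1.38 against 0.08 and -0.02 over all genes. The gene that rose was Slbp, the histone mRNA stem-loop binding protein (1.22, SE 0.44, edgeR adjusted p = 0.0494). With siSki8, 1 of 19 rose in RNA-seq, where 2.93% of all genes did, namely Dbf4, the activator of the Cdc7 kinase (1.37, SE 0.29, adjusted p = 0.00399), and 0 of 29 were called in 3'READS.

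Of the pocket proteins, E2F and DP factors, 7 of 12 fell with siPaf1 and 3 of 12 with siCdc73 in 3'READS, where 9.08% and 11.8% of all genes fell, and none (0) rose. E2f1, the best known activator E2F, had 68.1 and 63.6 CPM in 3'READS in siCtrl, 23.1 and 17.1 in siPaf1, 12.6 and 11.5 in siCdc73 and 52.0 in siSki8. It changed by -1.72 with siPaf1 (SE 0.28, edgeR adjusted p = 0.00065) and by -2.43 with siCdc73 (SE 0.30, adjusted p = 7.92e-05). E2f2, another activator, was -2.01 with siPaf1 (SE 0.31, edgeR adjusted p = 0.000338), while its siCdc73 libraries, at 35.0 and 24.7 CPM, lay at the siCtrl level of 35.1 and 22.9. E2f3 was -2.46 with siCdc73 (SE 0.31, edgeR adjusted p = 0.0001), and E2f8, an E2F of the repressor kind, was -2.76 with siPaf1 and -2.48 with siCdc73 (adjusted p = 0.00185 and 0.00375). In RNA-seq 2 of 4 tested fell with siPaf1 and 2 with siCdc73 (16.2% and 20.5% of all genes), among them the DP partner Tfdp1 with both (-1.44 and -0.999, edgeR adjusted p = 1.66e-05 and 0.000933). E2f4, which acts mostly as a repressor, was -0.63 with siPaf1 (SE 0.24, edgeR adjusted p = 0.0436).

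Of the other CDK inhibitors, 3 of 6 were tested in each assay. In RNA-seq 2 fell with siPaf1, and 1 rose and 1 fell with siCdc73, while in 3'READS 1 rose with siPaf1 and 2 with siCdc73. Over all genes 16.2% fell with siPaf1 in RNA-seq, 19.4% rose and 20.5% fell with siCdc73, and in 3'READS 9.74% and 10.8% rose, and with so few list genes these counts are not read against those shares. Cdkn1a, which encodes p21, had 379 and 280.4 CPM in RNA-seq in siCtrl, 581 and 190.5 in siPaf1, 951 and 860.2 in siCdc73 and 223 in siSki8. The siCdc73 libraries were above all others and the siPaf1 libraries lay on either side of siCtrl. Cdkn1a rose with siCdc73 in RNA-seq (log2 fold change 1.49, SE 0.26, edgeR adjusted p = 3.94e-05) and in 3'READS (1.28, SE 0.27, adjusted p = 0.00352), and was lower in siPaf1 than in siCdc73 in both assays (-1.39 and -1.25, adjusted p = 0.000276 and 0.00729). In 3'READS it thus passed in the same comparisons as Cdkn1b, its relative of the same inhibitor family. Cdkn1c, the remaining gene of that family, was low in siCtrl (1.2 and 0.851 CPM in 3'READS) and rose with siPaf1 (2.90, SE 0.54, edgeR adjusted p = 0.00101) and with siCdc73 (1.61, SE 0.56, adjusted p = 0.0299). The INK4 inhibitors Cdkn2c and Cdkn2d, which bind Cdk4 and Cdk6, fell with siPaf1 in RNA-seq (-0.84 and -1.33, edgeR adjusted p = 0.00948 and 0.0199). Of the activators and turnover factors of G1 CDKs, 2 of 6 fell with siPaf1, and 2 fell and 1 rose with siCdc73 in RNA-seq, and in 3'READS 2 of 12 fell and 1 rose with siPaf1 and 1 fell and 2 rose with siCdc73. Of all genes tested in 3'READS, 9.08% fell and 9.74% rose with siPaf1 and 11.8% fell and 10.8% rose with siCdc73, so that nothing is read from these small counts. Cks1b, a small CDK-binding protein that helps destroy p27, changed by -1.90 with siPaf1 and -1.76 with siCdc73 in RNA-seq (SE 0.24 and 0.23, edgeR adjusted p = 2.94e-07 and 7.52e-07). Skp2, the F-box protein of p27 turnover, had 10.4 and 13.5 CPM in 3'READS in siCtrl, 2.19 and 2.65 in siPaf1 and 12.4 and 12.1 in siCdc73, and fell with siPaf1 (-2.20, SE 0.38, edgeR adjusted p = 0.000782). Fbxw7, the F-box protein of cyclin E turnover, rose with siCdc73 in RNA-seq (0.79, SE 0.24, edgeR adjusted p = 0.0101) and in 3'READS (2.00, SE 0.28, adjusted p = 0.000218).

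**Figure D4:**
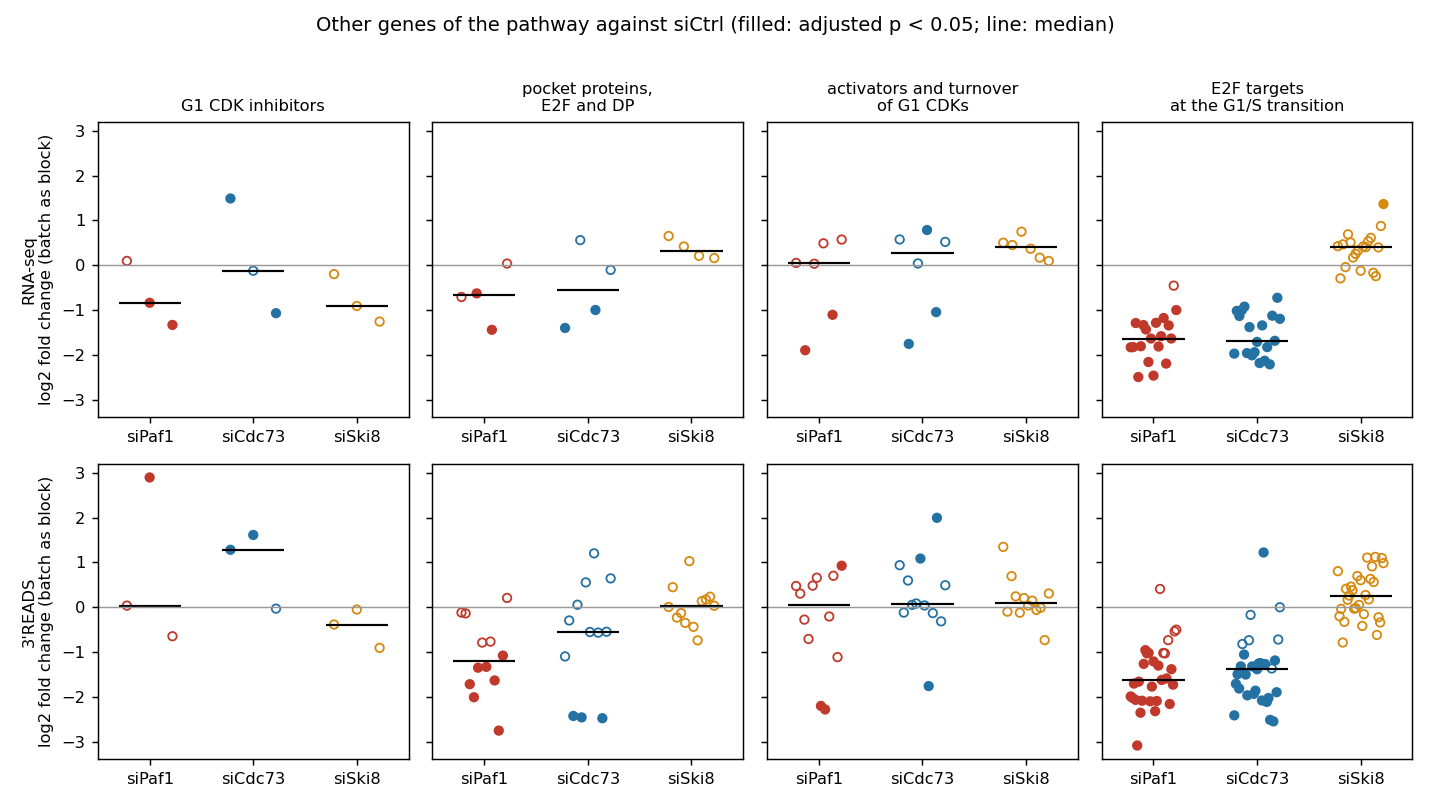
Log2 fold change against siCtrl with the batch as a block (y axis) of the tested genes of the 4 pathway lists (columns) in RNA-seq (top) and 3'READS (bottom) for each knockdown (x axis), with filled points for an adjusted p under 0.05 and a line at the list's median. In RNA-seq all 19 E2F targets lie below 0 with siPaf1 and with siCdc73 (medians -1.64 and -1.69), and in 3'READS 28 of 29 do with each, while with siSki8 5 of 19 and 11 of 29 lie below 0 (medians 0.4 and 0.26).

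Isoform choice was tested in 3'READS, where 4 members had a pair of 3'UTR sites deep enough to compare (3'UTR-APA) and 2 had an upstream site in an intron (CDS-APA). Without the block 0 of 4 and 0 of 2 members were called with any knockdown, where 0% of the 4567 genes tested for 3'UTR-APA were called with each of them, and for CDS-APA 2.27% of 1766 with siPaf1, 3.57% with siCdc73 and 0% with siSki8. At an unadjusted p under 0.05 that fit held 1 member for 3'UTR-APA, with siCdc73 (4.16% of all genes, and 5.01% with siPaf1 and 1.27% with siSki8), and 1 for CDS-APA, with siPaf1 (20.3%, and 20% with siCdc73 and 1.87% with siSki8). With the block, siPaf1 raised the share of the proximal site in 1 of 4 members (4.93% of genes were called in this direction and 1.69% in the other) and the share of the intronic sites in 1 of 2 (18.9% and 4.13%). The second count supports nothing, because its member, Ccnd2, entered the test through the libraries in which its intronic site is high. Ccnd2 was also the member in both unadjusted counts, and nothing is read from them. With siCdc73 0 of 4 and 0 of 2 were called, where 3.83% and 20.3% of genes shifted upstream and 0.416% and 2.77% downstream, and with siSki8 again 0 and 0, where 0.307% and 0.0566% shifted upstream and 0% downstream in both.

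The 3'UTR-APA call was Ccnd1, whose proximal site lies 1904 bases past the stop codon and whose distal site, with the AATAAA shown above, lies 2679 bases past it. The proximal share of the PASS reads at these sites was 38.3% (36 of 94 reads, 95% Wilson interval 29.1 to 48.4) and 25.6% (80 of 313, 21.0 to 30.7) in siCtrl, and 82.8% (77 of 93, 73.9 to 89.1) and 72.6% (146 of 201, 66.1 to 78.3) in siPaf1. These intervals cover counting error only. Both siPaf1 intervals were clear of both siCtrl intervals, and the log2 ratio of proximal to distal reads was 2.91 and 2.94 above siCtrl in the batches. The share was 100% in siCdc73 batch 1, but from 9 reads (70.1 to 100), and 39.1% (36 of 92, 29.8 to 49.3) in siCdc73 batch 2. It was lowest in siSki8 (17.1%, 62 of 363, 13.6 to 21.3). In siPaf1 the log2 ratio rose by 2.86 (SE 0.69, edgeR adjusted p = 0.00182 with the block and 0.961 without), and the call was lost without either siCtrl or the batch 2 siPaf1 library (up to 0.195). For siCdc73 the adjusted p was 0.254 with the block. Set on the CPM scale, the distal site stood at 8.7 and 22 in siCtrl and at 2.07 and 3.64 in siPaf1. The proximal site stood at 5.4 and 7.56 in siCtrl and at 9.94 and 9.66 in siPaf1. In both batches the distal site was thus lower and the proximal site higher in siPaf1. The gene total was nearly the same in both groups in batch 1 and lower in siPaf1 in batch 2 (33.4 and 16.2 CPM). In siCdc73 both sites were low, with 1.95 and 2.56 CPM at the proximal site and 0 and 3.98 at the distal site. The 11 further Ccnd1 sites, all in the same 3'UTR, held at most 105 reads each, of 1477 for the gene.

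The CDS-APA value past the threshold was that of the intron 2 site of Ccnd2, 2753 bases from the start site of the gene, and RNA ending there would lack exons 3 to 5. It held 0 of 77 and 4 of 240 reads in siCtrl (0%, Wilson interval 0 to 4.75, and 1.67%, 0.65 to 4.21). In siPaf1 it held 22 of 148 and 41 of 464 (14.9%, 10 to 21.5, and 8.84%, 6.58 to 11.8). The siCdc73 libraries had 6.67% (4 of 60, 2.62 to 15.9) and 3.06% (14 of 458, 1.83 to 5.07), and siSki8 had 3.82% (5 of 131, 1.64 to 8.62). The siPaf1 libraries were the highest, and the siCdc73 and siSki8 intervals overlapped with both siCtrl intervals. The site entered the test because it held 5.6% of all reads of the gene, above the minimum of 5%, with 14.7% and 8.76% in siPaf1, 5.8% and 3.04% in siCdc73, 3.73% in siSki8 and 0% and 1.61% in siCtrl, so that its test is given as a description and not as support. The log2 ratio of intronic to 3' reads was 2.43 higher with siPaf1 (SE 0.96, edgeR adjusted p = 0.0044 with the block and 0.134 without). This call was lost without the batch 1 siCtrl or the batch 2 siPaf1 library (up to 0.121) and when the filter on minor sites was dropped or loosened (0.076 and 0.0589 with the block). Of all reads of Ccnd2, the proximal 3'UTR site at chr6:127078889 held 9.21%, with 5.19% and 2.41% in siCtrl. The share was 4.67% and 8.55% in siPaf1, 11.6% and 15.7% in siCdc73 and 8.21% in siSki8. It was thus under the minimum of 5% in siCtrl batch 2, and its test is likewise given as a description. Of the reads of the 3'UTR pair it took 5.2% (4 of 77) and 2.54% (6 of 236) in siCtrl, 5.56% and 9.46% in siPaf1, 14.29% (8 of 56) and 16.2% (72 of 444) in siCdc73 and 8.73% in siSki8. The siCdc73 shares were the highest, and the test gave edgeR adjusted p = 0.0678 with the block and 1 without.

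**Figure D5:**
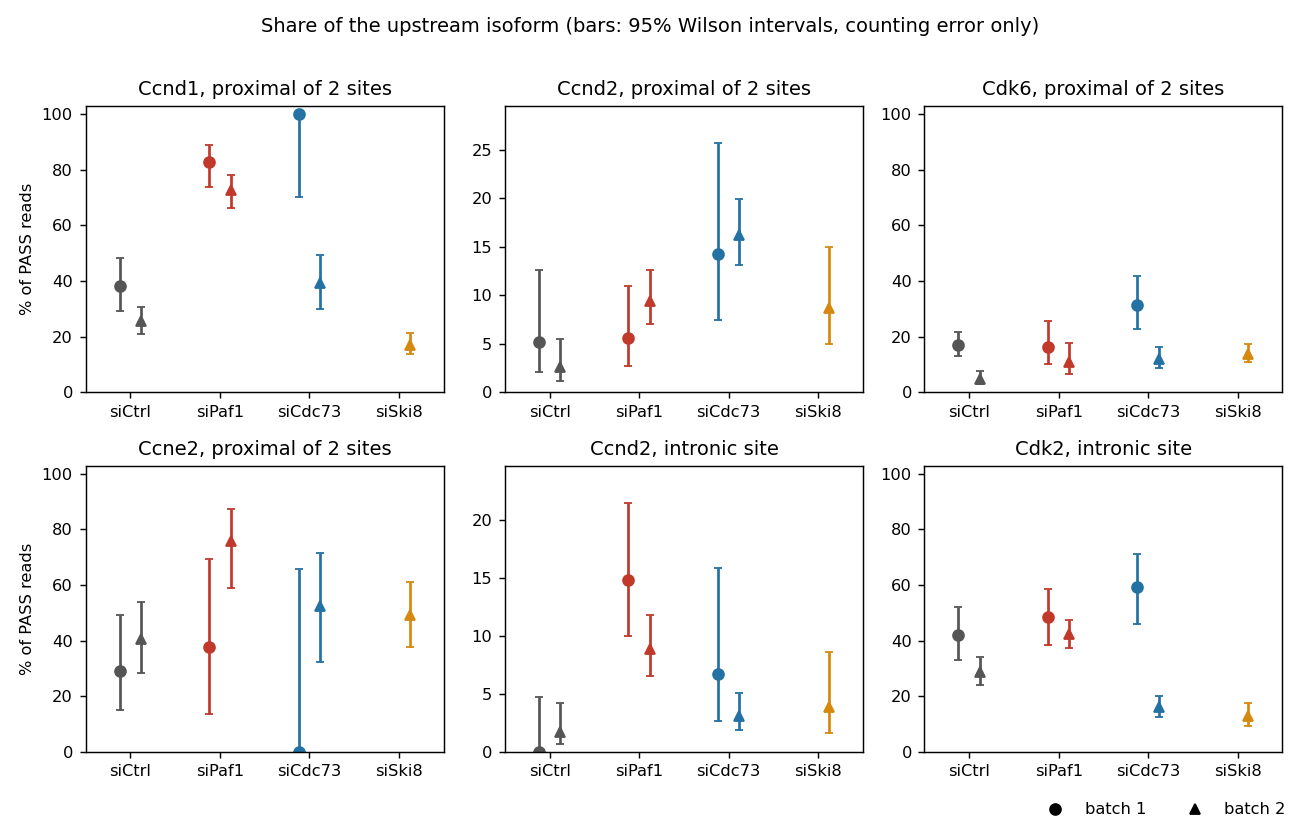
Share of PASS reads at the upstream isoform (y axis, %, each panel with its own scale from 0) per library by knockdown (x axis), with circles for batch 1, triangles for batch 2 and bars for 95% Wilson intervals of counting error. The Ccnd1 proximal share is 82.8% and 72.6% in siPaf1 against 38.3% and 25.6% in siCtrl, and the bars of Ccne2 and of Ccnd1 in siCdc73 batch 1 are wide because few reads lie behind them.

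For the other members with more than 1 isoform no call was made. The intron 5 site of Cdk2, which holds no hexamer, took 42.2% (43 of 102 reads) and 28.8% (94 of 327) in siCtrl, 48.4% and 42.3% in siPaf1, 59.3% and 16.1% in siCdc73 and 12.9% in siSki8. The siCdc73 libraries lay on either side of the siCtrl libraries, and in batch 2 the order was siSki8, siCdc73, siCtrl, siPaf1 (edgeR adjusted p = 0.56 for siPaf1, 0.903 for siCdc73 and 0.977 for siSki8 with the block). At the 3'UTR site of Cdk2 alone the levels were 8.85 and 22 CPM in siCtrl, 6.07 and 13.9 in siPaf1, 4.78 and 21.5 in siCdc73 and 26.2 in siSki8. The proximal Cdk6 site, 199 bases past the stop codon, took 16.9% and 4.71% in siCtrl, 16.3% and 10.8% in siPaf1, 31.4% and 11.9% in siCdc73 and 13.7% in siSki8. Within batches the log2 ratio of proximal to distal reads differed from siCtrl by -0.04 and 1.30 with siPaf1, by 1.17 and 1.43 with siCdc73 and by 1.65 with siSki8, and no knockdown passed (edgeR adjusted p = 0.727 for siPaf1, 0.319 for siCdc73 and 0.702 for siSki8 with the block). Ccne2 had between 2 and 67 reads per library at its pair of sites. Its proximal share was 29.2% (7 of 24, 14.9 to 49.2) and 40.4% (21 of 52, 28.2 to 53.9) in siCtrl, 37.5% (3 of 8, 13.7 to 69.4) and 75.8% (25 of 33, 59 to 87.2) in siPaf1, 0 of 2 reads and 52.4% (11 of 21) in siCdc73 and 49.3% (33 of 67) in siSki8. The batch 2 siPaf1 interval was above that of the batch 2 siCtrl library and the batch 1 intervals overlapped, and no knockdown passed (edgeR adjusted p of at least 0.651 with the block).

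Genes whose RNA-seq profile over the 7 libraries was most like that of a member were found by Pearson's r of log2 CPM among 5131 genes with a mean of at least 50 counts. This is a description, since the points share knockdowns and batches. For Ccne2 the nearest were C330027C09Rik (r = 0.992) and Ncapg, a condensin subunit (0.989), and for Ccne1 Cr1l (0.985) and Rpa3, a subunit of the single-strand binding protein of replication (0.978). Rb1 was nearest to Phip and Nek1 (both 0.958), and Cdk6 to Zc3h6 (0.982) and Slc38a1 (0.98). Ccnd2 was nearest to Vwa5a (0.991) and Pigs (0.987), Ccnd3 to Agbl5 (0.97) and Def6 (0.97), and Cdk2 to Slc25a12 (0.975) and Gas2 (0.974). Cdk4, whose levels followed the batch, was nearest to the translation initiation factor Eif3d (0.994) and to Emg1 (0.985).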

How the data were processed

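RNA-seq and 3'READS tables from 14 samples were used. For RNA-seq the authors made strand-specific libraries from rRNA-depleted RNA, mapped reads to mm9 with Bowtie2 (as the submitters' processing notes also state) and deposited raw counts over the coding sequence of RefSeq transcripts, with RPKM values that the authors scaled by length and mapped reads. For 3'READS the authors deposited raw counts of uniquely mapped PASS reads per pA site. Tool versions are not given in the sources used here. All 14 per-sample columns matched a label (0 unmatched).

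In RNA-seq the transcript of highest mean count stood for a gene, and in 3'READS the sum of its sense sites. Counts were tested over all genes in R 4.3.3 with edgeR 4.0.16 (TMM, its filter on low counts, quasi-likelihood test, prior count of 2, Benjamini-Hochberg adjustment, calls at an adjusted p under 0.05), with all 7 libraries of an assay in a fit, so that the lone siSki8 library, and a library left alone when its partner was left out, is assumed to vary like the others. For APA, sites under 5% of a gene's reads were left out, a mean of 20 reads per library was required, the knockdown effect on the isoform ratio was tested as an interaction, with a coefficient per library, and ratios of single libraries had 0.5 added. The fits were also run on simulated data as a self-test, from which no result here is drawn. For both assays the simulated gene counts had a spread near that of RNA-seq with the block, which is below that of 3'READS. DESeq2 1.42.0 and other settings served as alternatives. Site sequences and positions came from a genome of build mm9 and its gene annotation.

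Labels give the batch, so same-numbered libraries are paired by batch. Deviations from the group means of same-batch libraries correlated at 0.620, 0.748 and 0.633 in RNA-seq (6521 genes) and at 0.433, 0.610 and 0.432 in 3'READS (12579 genes), and the biological coefficient of variation fell from 0.397 to 0.179 and from 0.515 to 0.247 with the batch as a block.

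Members, pathway lists and markers were chosen with earlier results of these data known. All members are named. Of each list, up to 3 genes per direction with the smallest adjusted p in the blocked fit may be named, and for each member in RNA-seq the 2 genes of most similar profile.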

Additional observations from a re-analysis of the deposited data

How the results depend on the processing

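With the batch as a replicate block, in place of no block with 0 members called in every comparison, 6 (RNA-seq, siPaf1), 4 (siCdc73), 1 (siSki8) and 3 (siPaf1 against siCdc73) of 8 members were called, and 4, 6, 0 and 5 of 10 in 3'READS, and 1 each for 3'UTR-APA and CDS-APA with siPaf1. With the block and library size alone the counts were 6, 6, 2 and 2 in RNA-seq (33.1%, 41.8%, 7.38% and 30.3% of all genes) and 4, 6, 0 and 3 in 3'READS (20.2%, 23.2%, 0.382% and 16.7%). The study's rule on pooled reads (over 1.4-fold and Fisher's exact p under 0.01), which ignores the spread between libraries, gave 6, 6, 4 and 3 in RNA-seq (40.8%, 46.4%, 43.2% and 38.2% of all genes) and 6, 8, 4 and 5 in 3'READS (46.1%, 46.2%, 32% and 45.4%). DESeq2 gave 3, 1, 0 and 0 in RNA-seq and 3, 2, 0 and 1 in 3'READS, and no filter on low counts gave 2 (siPaf1, 1.88% of genes) and 1 (siCdc73, 2.85%) in RNA-seq. With the block, 3'UTR-APA with siPaf1 stayed at 1 member under both other site filters, and CDS-APA went to 0. Leaving out 1 library, with or without the block, gave 0 to 6, 0 to 5, 0 to 2 and 0 to 3 members in RNA-seq, 0 to 5, 0 to 6, 0 to 1 and 0 to 5 in 3'READS, 0 to 1 for 3'UTR-APA with siPaf1 and with siCdc73, and 0 to 1 for CDS-APA with siPaf1. The causes were not tested. Of the 31 calls with the block, 9 were kept with every library left out in turn, and 0 turned direction in any setting run. The edgeR fit without the block, with filter, scaling and libraries unchanged, called 0 of them. Of 29 of them at the gene level, 26 were kept with library size alone and the block, and 10 were called by DESeq2. Of the 59 member values not called with the block, 34 turned direction in at least 1 setting, so no fitted fold change is given for them, only differences between libraries of the same batch. Library size alone cannot change the APA fits, which hold a coefficient per library, and within-batch values have no test. Alternatives with the block and another scaling or site filter, and the 3'READS comparison of siPaf1 with siCdc73, were chosen after seeing the data. Putting the blocked fit before the planned main fit was also decided after seeing the data. Depth limits Ccne2 in 3'READS (3 to 101 reads) and Ccnd1 isoforms in siCdc73 batch 1 (9 reads).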
